A study of Rattus norvegicus with 12 samples.

Results

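Cytosolic heat shock proteins are the chaperones that hold, refold and hand on proteins in the cytoplasm of the heart muscle cell, and 10 of their genes were followed here by RNA-seq. They were chosen by gene symbol as 5 small heat shock proteins (Hspb1, Hspb6, Hspb7, Hspb8 and Cryab), the HSP70 family gene Hspa8, its relative Hsph1, the J-domain cochaperone Dnajb1, and the HSP90 pair Hsp90aa1 and Hsp90ab1. All 10 were found among the 18483 genes of the deposited tables, each as a single row, and all 10 were among the 13967 genes that passed the filter on low counts and were tested. The cells were neonatal rat ventricular myocytes (NRVMs), a primary culture from Sprague-Dawley rats in which myocytes are enriched on a Percoll density gradient. Slc39a2, which encodes a zinc transporter of the ZIP family, was knocked down in a study of zinc balance in cardiomyocyte hypertrophy. The 4 groups were siNeg (control siRNA, untreated), siNeg PE (control siRNA, then phenylephrine), siSlc39a2 (siRNA against Slc39a2, untreated) and siSlc39a2 PE (siRNA against Slc39a2, then phenylephrine), with 3 samples each and 12 in all. Phenylephrine (PE), an α1-adrenergic agonist that drives hypertrophy, was added 12 h after transfection and kept on for 36 h, per the labels. Every culture was thus transfected, and the knockdown rests on an siRNA of a single sequence. The submitters call the samples of a group independent biological replicates, and the p-values measure the spread between these cultures.

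Small heat shock proteins bind unfolding proteins without using ATP and keep them soluble, and in heart muscle they sit at the sarcomere and on desmin and filamin. HSP70 proteins such as the constitutive Hspa8 product take up such clients with ATP, J-domain proteins such as that of Dnajb1 deliver the clients, and HSP110 proteins such as that of Hsph1 exchange the nucleotide. HSP90 proteins finish the folding of kinases and steroid receptors, Hsp90ab1 being the constitutive form and Hsp90aa1 the stress-inducible form. Many of these genes carry heat shock elements, inverted repeats bound by the heat shock factors.

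The promoter windows of RefSeq (250 bases before to 50 after the annotated start, build GRCr8) were searched for such repeats. Windows were held for 8 of the 10 genes, matched by NCBI gene number, and for 12292 of the 13967 tested genes. Cryab and Hsp90aa1, which rose most with the knockdown without PE, had no window and were not searched. The 2-unit motif was GAANNTTC or TTCNNGAA, and the 3-unit motif was TTCNNGAANNTTC or GAANNTTCNNGAA, on both strands. Each 3-unit match holds 2 overlapping 2-unit matches. A 2-unit match lay in the windows of 6 of the 8 genes, against 15.9% of all 33469 windows and 11.6% of those of tested genes. A 3-unit match lay in the windows of Hspa8 and Hsph1, against 0.798% of all windows and 0.423% of those of tested genes. No match lay in the windows of Hspb7 and Hsp90ab1, which says only that these letters are not in those windows. The stretches below are shown because Hspa8 and Hsph1 hold 3 units, because Hspb1 and Hspb8 hold 2 units and moved with the knockdown, and because Dnajb1 holds 2 units and did not pass the test in either knockdown comparison. The choice thus followed the expression results and does not test a link between match and response. Hspb6, not shown, also holds 2-unit matches, at -239 to -232 and -149 to -142. It was called with the knockdown only in PE-treated cells. Dnajb1 has a further match after the start, at 18 to 25, which is not shown. The stretches are written 5′ to 3′ along the gene, with the matches upstream of the start in capitals. Hspa8 lies at chr8:50080286-50080486 (plus strand), with its 3-unit matches at positions -213 to -201 and -55 to -43 from the start. Hsph1 lies at chr12:10427248-10427359 (plus strand), with the 3-unit match at -36 to -24 and a further 2-unit match at -105 to -98. Hspb1 lies at chr12:26432388-26432445 (minus strand), Hspb8 at chr12:45837270-45837307 (plus strand) and Dnajb1 at chr19:41431142-41431167 (minus strand).
Hspa8: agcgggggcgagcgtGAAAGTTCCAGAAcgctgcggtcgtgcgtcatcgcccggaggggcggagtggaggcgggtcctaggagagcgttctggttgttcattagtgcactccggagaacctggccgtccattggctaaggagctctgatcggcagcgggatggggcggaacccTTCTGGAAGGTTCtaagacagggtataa
Hsph1: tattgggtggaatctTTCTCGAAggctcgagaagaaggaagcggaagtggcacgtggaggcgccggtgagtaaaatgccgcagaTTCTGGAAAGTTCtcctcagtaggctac
Hspb1: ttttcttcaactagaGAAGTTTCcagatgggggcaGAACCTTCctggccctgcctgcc
Hspb8: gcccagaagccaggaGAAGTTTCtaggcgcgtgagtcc
Dnajb1: gcatcgggaggggcgGAAGGTTCtgg

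The 12 libraries held 24065539 to 28603854 expected counts each. With total counts in place of TMM factors the median log2 fold change of all tested genes moved to 0.128 for the knockdown and to -0.107 for the interaction. The share of calls that were higher then became 64.9% in place of 46.4% for the knockdown, 58.4% in place of 48.3% for PE in control cells and 16.9% in place of 47.8% for the interaction. Slc39a2 was lower in the knockdown by a log2 fold change of -2.35 without PE and -2.33 with PE (adjusted p = 9.8e-04 and 2.24e-04, edgeR quasi-likelihood test with Benjamini-Hochberg adjustment), at 2 to 21 counts in siSlc39a2 against 50 to 59 in siNeg. Cell type markers differed between the groups as well. The summed level of 10 cardiomyocyte markers was 49700 to 50700 CPM (counts scaled to the library size) in siNeg, 46700 to 50700 in siNeg PE, 39200 to 40400 in siSlc39a2 and 41500 to 43000 in siSlc39a2 PE. That of 10 fibroblast markers was 13900 to 18400, 9220 to 11800, 5390 to 5700 and 3640 to 5030 CPM in the same order, and that of 7 smooth muscle and pericyte markers was 2550 to 2650, 1720 to 2130, 1080 to 1150 and 1710 to 1830. Summed endothelial markers (20.8 to 30.2 CPM) and macrophage markers (8.59 to 23.0 CPM) were low in every sample, and no marker of any list was at 0 in every sample of a group. The sums lean on their most abundant genes. With the knockdown without PE, mean Myh6 went from 15860 to 7407 CPM and Col1a1 from 10760 to 3351. Called lower and higher were 5 and 0 of 10 cardiomyocyte markers, and 7 and 1 of 10 fibroblast markers, Tcf21 being higher. Of all tested genes, 26.4% were lower and 22.8% higher. With PE in control cells Cnn1 rose 5.96-fold, though the smooth muscle and pericyte sum fell. In bulk samples, fewer cells of a type, less RNA per cell and changes of single marker genes cannot be told apart. The part of these shifts in the values below was not tested.

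By abundance, Cryab and Hspb7 stood at places 85 and 40 of all genes by mean FPKM in siNeg and at places 10 and 22 in siSlc39a2 PE, while Hspb8 stood at place 812 in siNeg and place 475 in siSlc39a2 PE. On the FPKM scale (fragments per kilobase of transcript scaled to library size, which allows levels to be compared between genes), Hspb7 led in siNeg with 1677 ± 177 (SD, n = 3), followed by Cryab with 1183 ± 64.1 and Hsp90ab1 with 856 ± 17.4. Hspb1 and Hspa8 came next at 550 ± 13.7 and 549 ± 17.1 FPKM, with ranges that overlapped, and then Hspb6 at 475 ± 44.2. Hspb8 (123 ± 8.73), Dnajb1 (49.7 ± 3.38), Hsp90aa1 (33.8 ± 2.94) and Hsph1 (13.3 ± 0.915) were lower, and apart from Hspb1 and Hspa8 no neighbours in this order overlapped. In siSlc39a2 PE the order had shifted. Cryab led there with 3012 ± 244 FPKM ahead of Hspb7 with 1857 ± 120, Hspb1 had moved from place 4 to place 3 with 1114 ± 122, and Hsp90aa1 had passed Dnajb1 (139 ± 48.9 against 47.1 ± 3.18). Neighbours that overlapped in siSlc39a2 PE were Hspa8 and Hsp90ab1, Hsp90ab1 and Hspb6, and Hspb8 and Hsp90aa1. By its mean FPKM, Cryab was at place 85 of all genes with siNeg and reached place 29 with siNeg PE, place 14 with siSlc39a2 and place 10 with siSlc39a2 PE.

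**Figure D1:**
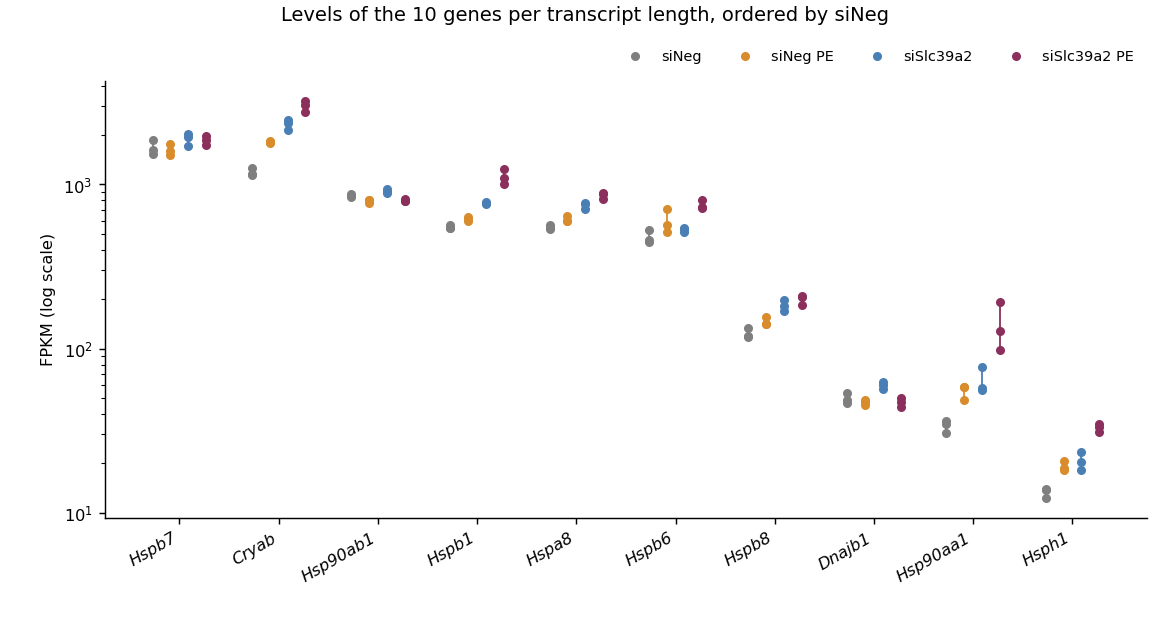
FPKM of the 10 genes on a log scale, ordered by their mean in siNeg; points are the 3 samples of each group and lines join the lowest and highest. Cryab lies below Hspb7 in siNeg (1138 to 1257 against 1541 to 1878) and above it in siSlc39a2 PE (2746 to 3225 against 1731 to 1971), and Hsph1 is the lowest gene in every group.

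Knockdown of Slc39a2 without PE raised 6 of the 10 genes and lowered none. Cryab (1.78-fold) and Hsp90aa1 (1.71-fold) rose most, Hsph1, Hspb8, Hspa8 and Hspb1 rose by 1.41-, 1.35-, 1.29- and 1.27-fold, and Hspb6, Hspb7, Dnajb1 and Hsp90ab1 did not pass the test. A gene was called at an adjusted p below 0.05 in edgeR's quasi-likelihood test with Benjamini-Hochberg adjustment over all 13967 genes, by which 22.8% of all tested genes were called higher and 26.4% lower. The median log2 fold change of the 10 genes was 0.36, against -0.016 over all tested genes. None of the 10 passed an absolute log2 fold change of 1, a limit which 9.78% of tested genes passed together with the adjusted p. In the 6 called genes every siSlc39a2 sample lay above every siNeg sample, as in 27.9% of all tested genes. With limma on quantile-normalized log2(FPKM + 1), the kind of test named in the study's methods, 9 of the 10 genes were called higher, Hspb7, Dnajb1 and Hsp90ab1 being added. That fit called 2919 of the 13967 tested genes higher and 3839 lower.

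PE in control cells raised fewer of the genes. Hsp90aa1 (1.55-fold), Cryab (1.45-fold) and Hsph1 (1.37-fold) rose, and Hsp90ab1 fell to 0.878-fold, a fall that limma on log2(FPKM + 1) turned into a log2 fold change of 0.036. The other 6 did not pass the test. With limma on log2(FPKM + 1) 6 genes were called higher and none lower, beside 3160 and 3402 of the 13967 tested genes. Of all tested genes 24.0% were called higher, 25.7% lower and 6.6% past a log2 fold change of 1 in either direction, which none of the 10 passed. The median log2 fold change of the 10 genes was 0.12 against -0.014 over all tested genes.

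Knockdown in PE-treated cells raised 7 of the 10 genes and lowered none. Hsp90aa1 rose 2.51-fold, Hspb1 1.81-fold, Hsph1 1.71-fold, Cryab 1.65-fold, Hspa8 1.47-fold and Hspb8 1.36-fold, and Hspb6 rose 1.25-fold with groups that overlapped. Hspb7, Dnajb1 and Hsp90ab1 did not pass the test. Of all tested genes 29.2% were called higher and 28.1% lower, and 11.6% were past a log2 fold change of 1, among them Hsp90aa1 as the only one of the 10. The median log2 fold change was 0.50 for the 10 genes against 0.010 for all tested genes.

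PE after knockdown raised 6 genes and lowered 2. Hsp90aa1 rose 2.27-fold, Hsph1 1.66-fold, Hspb1 1.49-fold, Hspb6 1.47-fold, Cryab 1.34-fold and Hspa8 1.18-fold, while Dnajb1 fell to 0.819-fold and Hsp90ab1 to 0.909-fold, the latter not with limma on log2(FPKM + 1) (0.015). The called share of all tested genes was 30.7% higher, 29.3% lower and 10.5% past a log2 fold change of 1, which Hsp90aa1 passed with all samples but not without siSlc39a2 PE replicate 3 (0.88). The median log2 fold change was 0.33 for the 10 genes against 0.0058 for all tested genes. The comparisons share samples, siNeg serving in the knockdown and the PE comparison of untreated or control cells, so their values are given side by side and not as independent results. Cryab, Hsph1 and Hsp90aa1 were called higher in all 4 comparisons and Hspb7 in none of them.

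**Figure D2:**
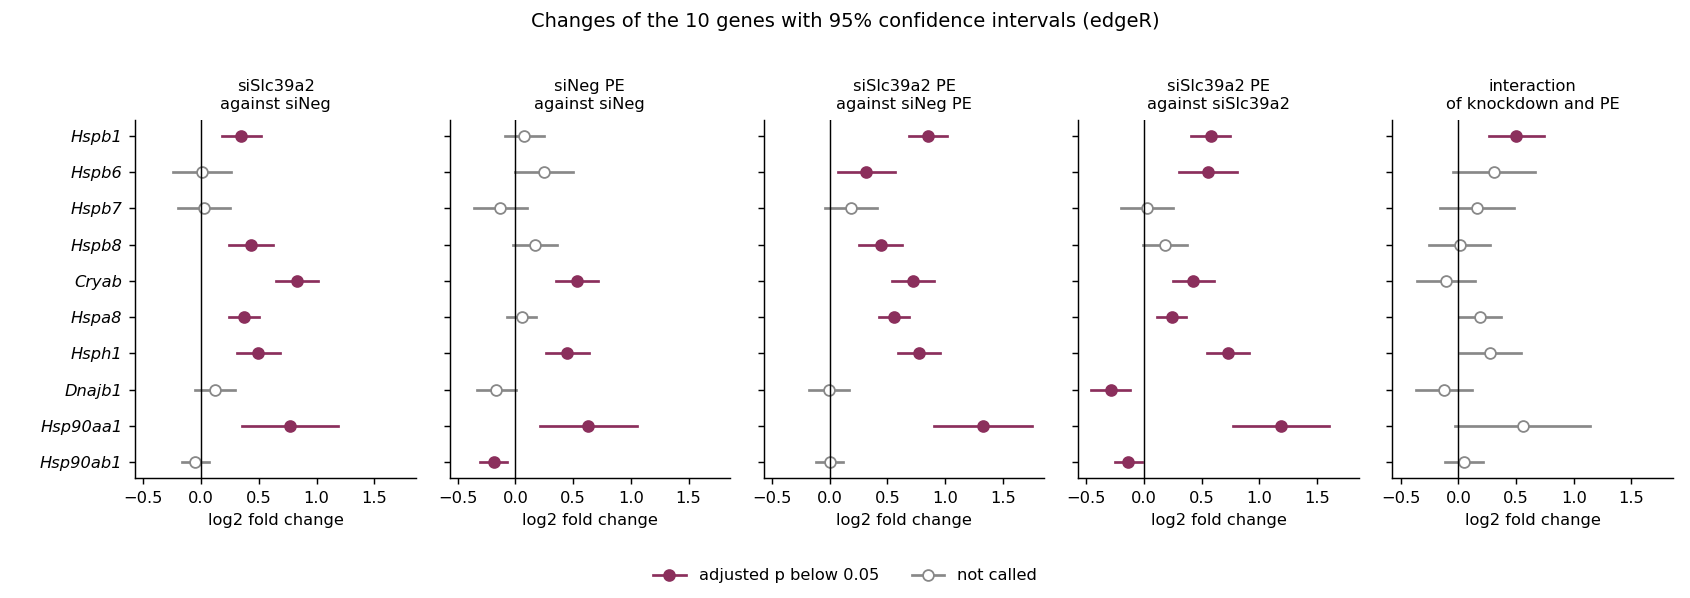
Log2 fold change of each gene (points) with its 95% confidence interval (lines) in the 4 comparisons and in the interaction, from edgeR; filled points passed an adjusted p below 0.05. Hsp90aa1 lies furthest to the right in 3 of the 4 comparisons, at 0.63, 1.33 and 1.19, and Cryab in the knockdown without PE, at 0.83; the change of Hsp90ab1 with the knockdown, -0.05 here, is 0.24 with limma on log2(FPKM + 1).

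Among the small heat shock proteins, Cryab (αB-crystallin, a chaperone of desmin and titin) had the largest log2 fold change with the knockdown alone, with PE alone and in siSlc39a2 PE against siNeg, while Hspb1 exceeded it with the knockdown in PE-treated cells and Hspb1 and Hspb6 with PE after the knockdown. Its level was 1079, 1083 and 1234 CPM in siNeg, 1613, 1642 and 1664 in siNeg PE, 1830, 2074 and 2141 in siSlc39a2, and 2444, 2746 and 2925 in siSlc39a2 PE. The 4 groups did not overlap, and each followed the other in this order. The log2 fold change was 0.83 (standard error SE = 0.083, adjusted p = 3.83e-06, edgeR with Benjamini-Hochberg adjustment) for the knockdown alone and 0.53 (0.082, adjusted p = 2.62e-04) for PE alone. It was 0.72 (adjusted p = 1.26e-05) for the knockdown with PE and 0.42 (adjusted p = 7.86e-04) for PE after the knockdown. siSlc39a2 also lay above siNeg PE by 0.30 (adjusted p = 0.00984), and siSlc39a2 PE was 2.39-fold above siNeg.

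Hspb1 (HSP27 in humans, HSP25 in mice, a chaperone of actin filaments and filamin) rose with the knockdown and, in knocked down cells, with PE. The siNeg samples had 448, 455 and 491 CPM and the siNeg PE samples 475, 481 and 514 CPM, and these groups overlapped. The siSlc39a2 samples were all at 592 to 593 CPM, above both, and the siSlc39a2 PE samples reached 789, 866 and 999 CPM. The knockdown raised it by a log2 fold change of 0.35 (SE 0.078, adjusted p = 0.00251, edgeR with Benjamini-Hochberg adjustment) without PE and by 0.85 (0.079, adjusted p = 1.79e-06) with PE. PE changed it by 0.08 (adjusted p = 0.43) in control cells and by 0.58 (adjusted p = 5.82e-05) after the knockdown. In control cells limma on log2(FPKM + 1) did call the PE effect, at 0.20 (adjusted p = 0.0134).

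The difference between these effects, the interaction of knockdown and PE, was a log2 fold change of 0.50 for Hspb1 (SE 0.11, adjusted p = 0.0248, edgeR with Benjamini-Hochberg adjustment). It was the only one of the 10 genes to pass in edgeR, where 1.73% of tested genes had a positive and 1.88% a negative interaction and 0.988% were past a log2 fold change of 1. Hspa8, Hsph1 and Hsp90aa1 had interactions of 0.19, 0.28 and 0.56 that did not pass (adjusted p = 0.292, 0.276 and 0.345), with 95% confidence intervals of 0.0072 to 0.37, 0.018 to 0.54 and -0.032 to 1.14. The interaction of Cryab was -0.11 (interval -0.36 to 0.14, adjusted p = 0.716), but limma on log2(FPKM + 1) called it at -0.46 (adjusted p = 0.0413). The call for Hspb1 was kept in 10 of 20 alternatives, in which the value lay between 0.37 and 0.58 and the adjusted p between 0.00149 and 0.112. It was lost with limma on log2(count + 1) (0.38, adjusted p = 0.112), with total counts in place of TMM factors (0.37, adjusted p = 0.0512) and when single samples were left out. Without siSlc39a2 PE replicate 1, the highest sample, it was 0.37 (adjusted p = 0.0578), and without replicate 2 of that group 0.52 (adjusted p = 0.0575). The adjusted p was 0.0713, 0.068 and 0.0658 without siSlc39a2 replicate 1, 2 or 3, 0.0768 and 0.0528 without siNeg PE replicate 2 or 3, and 0.0585 without siNeg replicate 2.

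Hspb8 (HSP22, which works with Bag3 in the clearance of damaged sarcomere proteins) rose with the knockdown. It had 205, 210 and 243 CPM in siNeg, 234, 238 and 268 in siNeg PE, 270, 298 and 318 in siSlc39a2, and 309, 343 and 353 in siSlc39a2 PE. Every knockdown sample lay above every control sample of the same treatment, while siNeg PE overlapped siNeg and siSlc39a2 PE overlapped siSlc39a2. The log2 fold change of the knockdown was 0.43 (SE 0.088, adjusted p = 0.00136, edgeR with Benjamini-Hochberg adjustment) without PE and 0.44 (0.088, adjusted p = 9.26e-04) with PE. PE changed it by 0.17 (adjusted p = 0.122) in control cells and 0.18 (adjusted p = 0.0894) after the knockdown, and over the alternatives the former passed in 6 of 21 and the latter in 4 of 21. Bag3, its partner, did not pass with the knockdown (0.01 without PE, adjusted p = 0.93, and -0.03 with PE, adjusted p = 0.803) and fell with PE by 0.41 in control cells and by 0.44 after the knockdown.

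Hspb6 (HSP20, a target of protein kinase A in muscle) was highest when both were combined. It had 561, 584 and 695 CPM in siNeg, 628, 675 and 879 in siNeg PE, 585, 624 and 640 in siSlc39a2, and 870, 873 and 977 in siSlc39a2 PE. Replicate 1 of siNeg PE stood above the others of its group and overlapped siSlc39a2 PE. PE after the knockdown raised it by a log2 fold change of 0.56 (SE 0.12, adjusted p = 0.00129, edgeR with Benjamini-Hochberg adjustment), and PE in control cells changed it by 0.25 (adjusted p = 0.0929). The latter was called in 7 of 21 alternatives, among them the replicate block (0.24, adjusted p = 0.0144), total counts (0.32, adjusted p = 0.0234) and limma on log2(FPKM + 1) (0.34, adjusted p = 0.00892). Leaving out single samples moved it between 0.088, without siNeg PE replicate 1, and 0.35, without siNeg replicate 1, and it was called without the latter (adjusted p = 0.0371) and without siNeg PE replicate 3 (0.34, adjusted p = 0.0373). The rise of 0.32 with the knockdown in PE-treated cells (adjusted p = 0.0315) was lost without siNeg PE replicate 2 (0.27, adjusted p = 0.114), without siNeg PE replicate 3 (0.22, adjusted p = 0.132), without siSlc39a2 PE replicate 1 (0.26, adjusted p = 0.106) and in a fit on those groups alone (0.32, adjusted p = 0.0567). In untreated cells the knockdown changed it by 0.0072 (95% confidence interval -0.24 to 0.26, adjusted p = 0.965). The interaction of knockdown and PE for Hspb6 did not pass in edgeR, at 0.31 (95% confidence interval -0.043 to 0.66, adjusted p = 0.388).

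Hspb7 (cvHSP, the cardiovascular member of the family, which binds filamin C) was called in none of the 4 comparisons. Its lowest and highest samples were 2683 and 3415 CPM in siNeg, 2511 and 3016 in siNeg PE, 2698 and 3253 in siSlc39a2, and 2876 and 3313 in siSlc39a2 PE, so all groups overlapped. The 95% confidence intervals of its log2 fold changes ran from -0.36 to 0.41 over the 4 comparisons, with adjusted p between 0.146 and 0.838. Limma on log2(FPKM + 1), which differs in test, unit and normalization, called the knockdown effect at 0.41 without PE (adjusted p = 0.00124) and 0.42 with PE (adjusted p = 8.55e-04). RLE factors or total counts in the edgeR fit did not bring a call. With the replicate number as a block the knockdown effect with PE was called at 0.19 (adjusted p = 0.00763). Each siSlc39a2 PE sample lay above the siNeg PE sample of the same number.

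**Figure D3:**
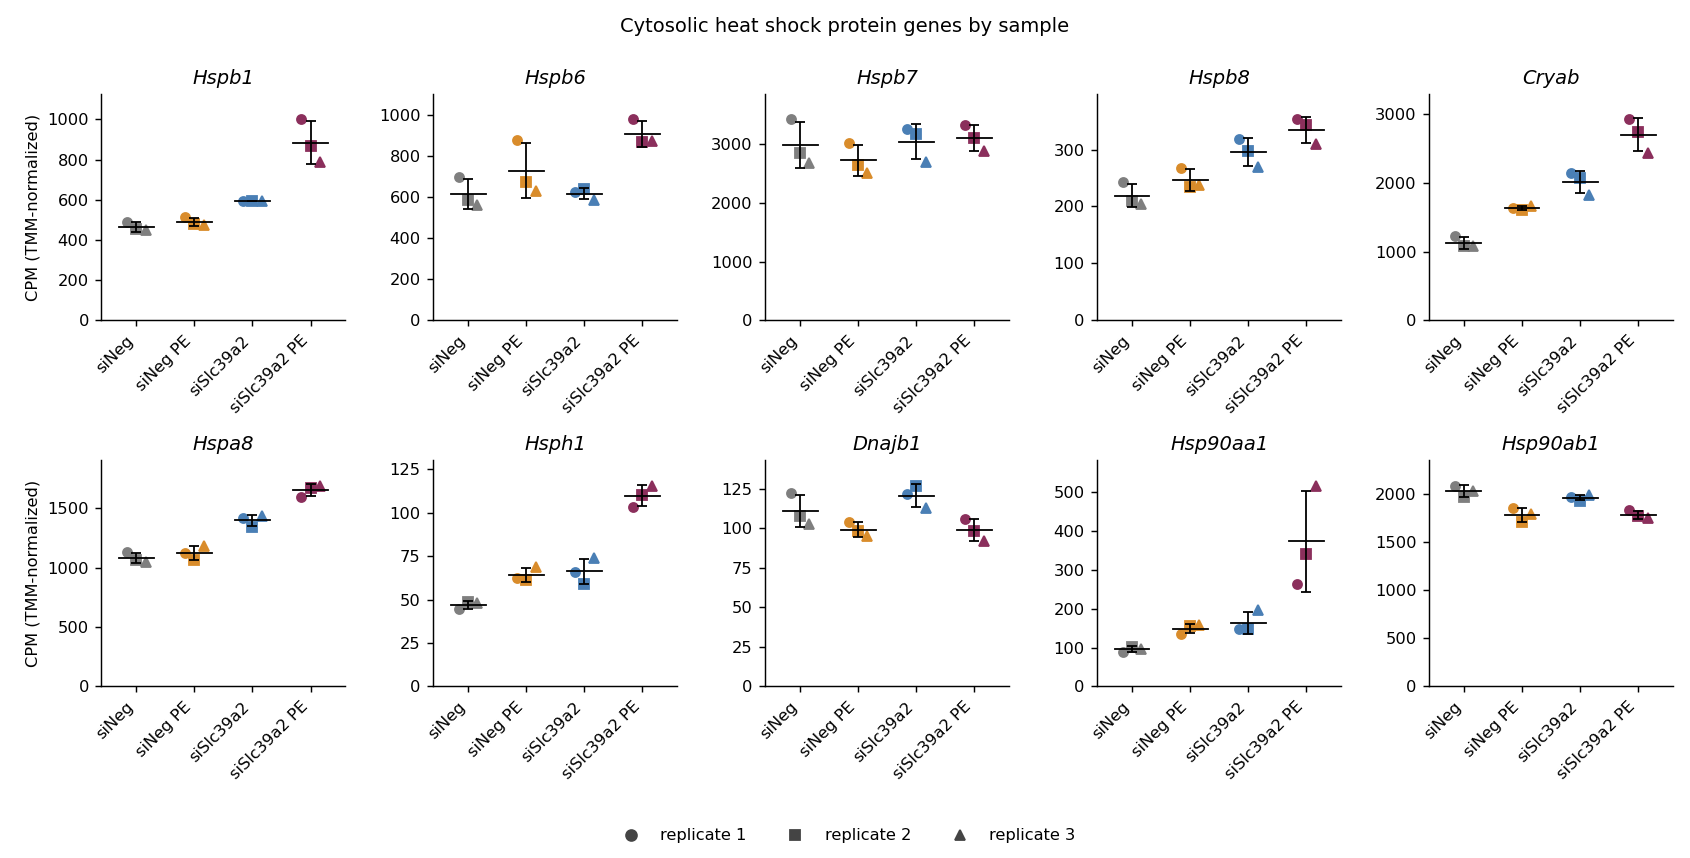
CPM of the 10 genes by sample, on linear axes from 0; symbols mark the replicate number, and black bars give the mean ± SD (n = 3). The siSlc39a2 PE samples of Cryab (2444 to 2925), Hspb1 (789 to 999), Hspa8 (1598 to 1691), Hsph1 (104 to 116) and Hsp90aa1 (263 to 517) lie above all other groups, while Hspb7 overlaps in every group.

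Of the HSP70 machine, Hspa8 (HSC70, the constitutive HSP70 that also uncoats clathrin) rose with the knockdown. It had 1048, 1066 and 1129 CPM in siNeg, 1063, 1122 and 1180 in siNeg PE, 1346, 1419 and 1432 in siSlc39a2, and 1598, 1671 and 1691 in siSlc39a2 PE. The first 2 groups overlapped, and the knockdown groups lay above them and apart from each other. The log2 fold change of the knockdown was 0.37 (SE 0.059, adjusted p = 2.15e-04, edgeR with Benjamini-Hochberg adjustment) without PE and 0.56 (0.059, adjusted p = 6.33e-06) with PE. PE after the knockdown raised it by 0.24 (adjusted p = 0.0036), a call that was lost with limma on log2(count + 1) (0.16, adjusted p = 0.0502). The counts of Hspa8 were not whole in 12 of 12 samples, and RefSeq names 33 pseudogenes of it, 1 of which is in the count table, so reads were divided between genes in the counting and its changes are uncertain to that extent.

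Hsph1 (HSP105, an HSP110 that recharges HSP70 and takes part in the breaking up of aggregates) was the least abundant of the 10 in FPKM. It had 44.4, 47.7 and 48.8 CPM in siNeg, 61.4, 62.1 and 69.0 in siNeg PE, 59.1, 65.7 and 73.7 in siSlc39a2, and 104, 110 and 116 in siSlc39a2 PE. Either treatment alone gave similar levels that overlapped (difference 0.04, 95% confidence interval -0.14 to 0.23, adjusted p = 0.707), and the combination lay above all other samples. The log2 fold changes were 0.49 for the knockdown, 0.45 for PE, 0.77 for the knockdown with PE and 0.73 for PE after the knockdown (adjusted p = 4.31e-04, 0.00112, 8.94e-06 and 1.82e-05, edgeR with Benjamini-Hochberg adjustment), each with a standard error of 0.085 or 0.086. All 12 counts of Hsph1 were whole.

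Dnajb1 (HSP40, which delivers clients to HSP70) was called in neither knockdown comparison, unlike Hspa8 and Hsph1. It had 103, 108 and 122 CPM in siNeg, 95, 98 and 104 in siNeg PE, 113, 122 and 127 in siSlc39a2, and 91.8, 98.5 and 106 in siSlc39a2 PE. The siSlc39a2 samples overlapped siNeg and lay above both PE groups, and siSlc39a2 PE overlapped both control groups. The log2 fold change of the knockdown was 0.12 without PE (adjusted p = 0.222, edgeR with Benjamini-Hochberg adjustment) and -0.0035 with PE (95% confidence interval -0.18 to 0.17, adjusted p = 0.974). Without PE it was called with total counts (0.27, adjusted p = 0.00639) and with limma on log2(FPKM + 1) (0.17, adjusted p = 0.0339). PE changed it by -0.16 in control cells (adjusted p = 0.102), a change that the replicate block called (adjusted p = 0.0191), and after the knockdown it fell by 0.29 (SE 0.079, adjusted p = 0.0071). The ratio of Hspa8 to Dnajb1 in FPKM was 10 to 12.1 in siNeg and 16.2 to 20.2 in siSlc39a2 PE.

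The genes of the HSP90 pair did not change alike, and their levels drew closer in the treated groups. Hsp90aa1 (HSP90α) had 89, 97.4 and 102 CPM in siNeg, 134, 155 and 157 in siNeg PE, 147, 149 and 197 in siSlc39a2, and 263, 339 and 517 in siSlc39a2 PE. All treated samples lay above siNeg, siNeg PE and siSlc39a2 overlapped, and the siSlc39a2 PE samples were the highest and the most widely spread. The log2 fold changes were 0.77 for the knockdown, 0.63 for PE, 1.33 for the knockdown with PE and 1.19 for PE after the knockdown (adjusted p = 0.00543, 0.0174, 9.56e-05 and 2.38e-04, edgeR with Benjamini-Hochberg adjustment), with a standard error of 0.19 each. The rise with PE in control cells was lost without siNeg replicate 1 (0.58, adjusted p = 0.0598), without siNeg PE replicate 2 (0.60, adjusted p = 0.051) and without siNeg PE replicate 3 (0.59, adjusted p = 0.0543). Leaving out single samples moved the knockdown effect with PE between 1.02 and 1.52, PE after the knockdown between 0.88 and 1.36 and the interaction between 0.25 and 0.72. The lowest of each was the value without siSlc39a2 PE replicate 3. siSlc39a2 PE was 3.88-fold above siNeg, the highest ratio of the 10 genes. The counts of Hsp90aa1 were not whole in 12 of 12 samples, so the size of these changes is uncertain. RefSeq names 16 pseudogenes of it, but 0 of these are in the count table, and the genes that shared its reads were not identified.

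Hsp90ab1 (HSP90β), the more abundant form, had 1974, 2037 and 2090 CPM in siNeg, 1707, 1797 and 1852 in siNeg PE, 1934, 1972 and 1988 in siSlc39a2, and 1757, 1770 and 1832 in siSlc39a2 PE. The PE groups lay below the untreated groups, and within a treatment the knockdown and control samples overlapped. Its log2 fold change with the knockdown was -0.05 without PE (adjusted p = 0.462, edgeR with Benjamini-Hochberg adjustment) and 0.00071 with PE (95% confidence interval -0.12 to 0.12, adjusted p = 0.993), but 0.24 and 0.22 with limma on log2(FPKM + 1) (adjusted p = 0.00814 and 0.0107), and 0.096 without PE with total counts in edgeR (adjusted p = 0.105), so its direction changed between these settings. With PE it fell by 0.19 in control cells and by 0.14 after the knockdown (adjusted p = 0.0117 and 0.0407, edgeR), and these values turned to 0.036 and 0.015 with limma on log2(FPKM + 1). The fall after the knockdown was also lost without siSlc39a2 PE replicate 2 or 3 (adjusted p = 0.113 and 0.112), without siSlc39a2 replicate 1 or 2 (0.0951 and 0.0706), without siNeg replicate 2 (0.0517) and without siNeg PE replicate 3 (0.0513), and that in control cells without siNeg PE replicate 2 (-0.16, adjusted p = 0.0608) and with total counts (-0.11, adjusted p = 0.0604). The counts of Hsp90ab1 were not whole in 1 of 12 samples, and RefSeq names 23 pseudogenes of it, 1 of which is in the count table.

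Within a sample, the ratio of 2 genes does not depend on the scaling between samples. Hsp90aa1 reached 0.0355 to 0.0431 of the FPKM of Hsp90ab1 in siNeg, 0.0604 to 0.0757 in siNeg PE, 0.063 to 0.0825 in siSlc39a2 and 0.12 to 0.245 in siSlc39a2 PE. Hspb7 stood at 1.33 to 1.49 times the FPKM of Cryab in siNeg, 0.813 to 0.987 times in siNeg PE, 0.795 to 0.824 times in siSlc39a2 and 0.609 to 0.63 times in siSlc39a2 PE. In both ratios siNeg and siSlc39a2 PE lay at the ends, apart from the other groups, and siNeg PE and siSlc39a2 overlapped. Together the 10 genes made up 0.875% to 0.895% of the summed FPKM in siNeg, 1.04% to 1.07% in siNeg PE, 1.18% to 1.28% in siSlc39a2 and 1.47% to 1.55% in siSlc39a2 PE, with no overlap between groups. The 5 small heat shock proteins held most of this, with 0.631% to 0.667% in siNeg and 1.12% to 1.25% in siSlc39a2 PE. Such a share, unlike a ratio of 2 genes, also depends on the levels of all other genes in the sample. Mean FPKM of Hspb7, for example, was 1677 in siNeg and 1889 in siSlc39a2, against 2978 and 3037 CPM with TMM scaling.

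**Figure D4:**
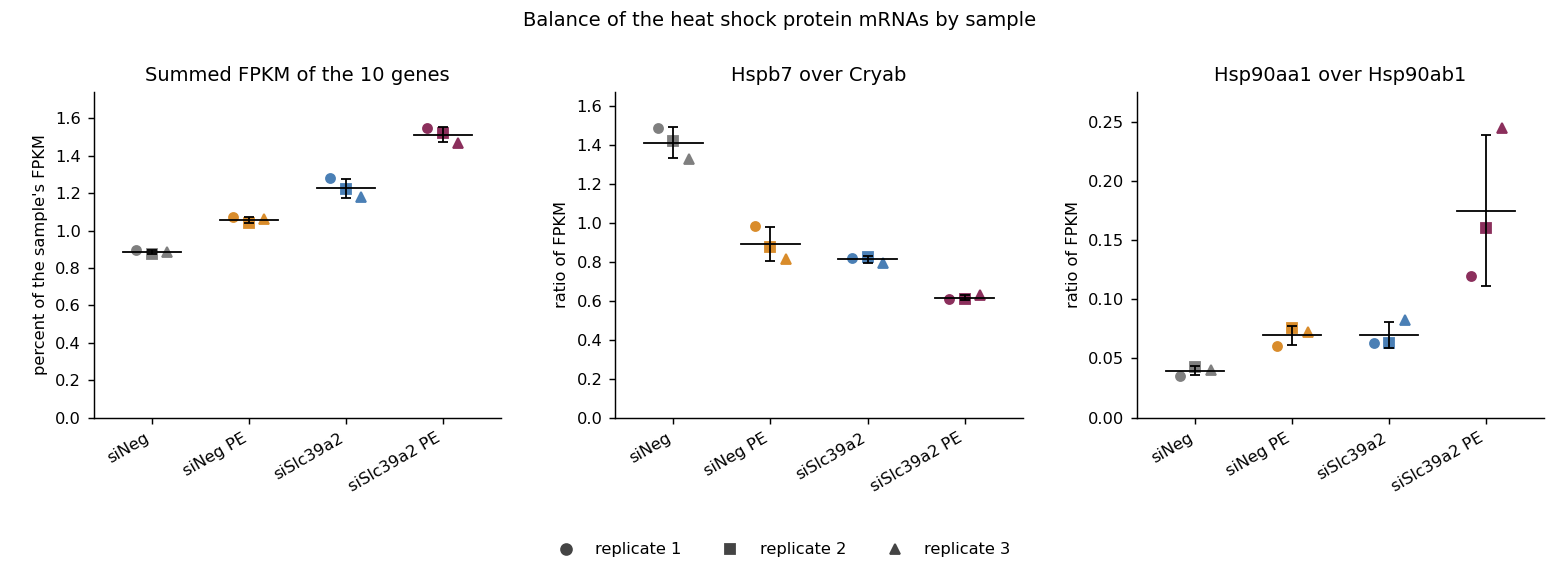
Share of the 10 genes in the summed FPKM of each sample (left, percent), FPKM ratio of Hspb7 to Cryab (middle) and of Hsp90aa1 to Hsp90ab1 (right), on linear axes from 0, with mean ± SD (n = 3) in black. The share runs from 0.875% to 1.55%; siNeg and siSlc39a2 PE lie apart at the ends of each panel and siSlc39a2 PE replicate 3 has the highest Hsp90aa1 ratio, 0.245.

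The other genes of the chaperone network were followed on 10 lists of 80 genes, of which 77 were tested. In the knockdown without PE 32 were called higher and 16 lower, with PE in control cells 34 and 15, in the knockdown with PE 37 and 10, and with PE after the knockdown 42 and 15. Of all tested genes 22.8% were called higher and 26.4% lower in the first of these comparisons, 24.0% and 25.7% in the second, 29.2% and 28.1% in the third, and 30.7% and 29.3% in the fourth, and the list counts here and below are to be read against these shares. The median log2 fold changes of the 77 were 0.089, 0.16, 0.17 and 0.23, against -0.016, -0.014, 0.010 and 0.0058 over all tested genes. Of the 11 other cytosolic J-domain cochaperones, 7 rose and 2 fell with the knockdown without PE, and 7 rose and 1 fell with PE present, with medians of 0.58 and 0.70, beside 22.8% and 29.2% of all tested genes called higher. Dnaja1, another HSP40 that serves Hspa8, rose by log2 fold changes of 0.99 and 1.33, and Dnajb4 by 1.23 with PE present. Dnajb5 rose by 1.2 with the knockdown in PE-treated cells and by 1.1 with PE in control cells, and its interaction was 0.49 (adjusted p = 0.00998, edgeR with Benjamini-Hochberg adjustment). The counts of Dnaja1, and of Ppid and Hspd1 named next, were not whole in 12 of 12 samples.

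The HSP90 cochaperones and adaptors, 16 tested, had 7 higher and 3 lower with the knockdown, 5 and 5 with PE, 10 and 1 with the knockdown in PE-treated cells, and 8 and 3 with PE after it. The 5 and 5 with PE stand beside 24.0% and 25.7% of all tested genes, and their median log2 fold change was -0.00066. Chordc1, a cochaperone that binds zinc and HSP90, rose by log2 fold changes of 0.68, 0.53, 1.24 and 1.09 in the same order. Fkbp5 and Ppid, peptidyl-prolyl isomerases of the HSP90 complex, rose by 0.97 and 0.56 with the knockdown and by 0.74 and 0.56 with PE. Of the TRiC chaperonin subunits, which fold actin and tubulin, 5 of 8 rose and none fell with the knockdown, with or without PE, and 6 rose and none fell with PE, in control cells or after the knockdown, beside 22.8% to 30.7% of all tested genes called higher. Cct8 rose by 0.50 with the knockdown and 0.76 with the knockdown in PE-treated cells.

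Of the 8 other HSP70 and HSP110 genes tested, 2 were higher and 3 lower with the knockdown (median log2 fold change -0.44), 6 and 1 with PE in control cells (0.57), 2 and 2 with the knockdown in PE-treated cells (0.15), and 5 and 2 with PE after the knockdown (0.67). The rises with PE were led by Hspa1l (1.62 in control cells and 2.39 after the knockdown), Hspa4l (1.06 and 1.68) and Hspa2 (1.00 and 1.56), HSP70 and HSP110 genes best known from the testis. All 3 were low here, at 0.64 to 5.99 CPM in siNeg, and the counts of Hspa1l were not whole in any sample. Hspa4, an HSP110, rose by log2 fold changes of 0.49 and 0.84 with the knockdown without and with PE. The stress-inducible Hspa1a was near the lower end of detection, at 2.79 to 2.90 CPM in siNeg, 1.08 to 3.23 in siNeg PE, 1.02 to 3.15 in siSlc39a2 and 0.821 to 1.06 in siSlc39a2 PE, with counts shared with other genes in every sample. It was called lower in siSlc39a2 PE against siNeg PE (-1.14, adjusted p = 0.033, edgeR with Benjamini-Hochberg adjustment) and did not pass with the knockdown alone (-0.54, adjusted p = 0.264). Hspa1b, also on this list, was absent from the count table, so its level is not known here. Hspa12a, a distant relative, fell by 0.76 without PE and by 1.4 with PE, with an interaction of -0.64 (adjusted p = 0.0395). Of the other small heat shock proteins, Hspb3 rose with the knockdown in PE-treated cells by 0.46 and had an interaction of 0.53 (adjusted p = 0.032), while Hspb2, the head-to-head neighbour of Cryab, did not pass in any comparison (0.06 with the knockdown, adjusted p = 0.613). Cryaa and Hspb9 were too low to be tested.

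The heat shock factors moved in different directions. Hsf1, the main factor of the heat shock response, rose by a log2 fold change of 0.21 with the knockdown (adjusted p = 0.0205, edgeR with Benjamini-Hochberg adjustment) and fell by 0.40 with PE in control cells. Hsf2 rose with the knockdown by 0.32 without and 0.83 with PE, and Hsbp1, an inhibitor of Hsf1, fell by 0.51 and 0.38. Hsf4 changed with the knockdown by -1.21 without PE (adjusted p = 0.00313, edgeR) and -0.94 with PE (adjusted p = 0.0134, edgeR). Without PE it was the only one of the 77 other chaperone genes past an absolute log2 fold change of 1. It was near the lower end of detection, at mean CPM of 1.14 in siNeg and 0.49 in siSlc39a2, with counts not whole in 12 samples. Of 9 endoplasmic reticulum chaperones 5 rose and 1 fell with the knockdown, and 7 rose and 1 fell with the knockdown in PE-treated cells, beside 22.8% and 29.2% of all tested genes called higher. Hspa5, the HSP70 of that compartment, rose by 0.76 and 1.02. Of 7 mitochondrial chaperones 2 rose and 1 fell in each of these comparisons, a count near the shares over all tested genes, Hspd1 rising by 0.45 and 0.71 and Trap1 falling by 0.44 in both. Of 7 exchange factors and BAG proteins 1 rose and 2 fell with the knockdown without PE, beside 22.8% and 26.4% of all tested genes. Bag5 rose by 0.67, and Bag6 and Bag2 fell by 0.50 and 0.40. Among 5 sarcomere partners and clients, Des, which encodes the Cryab client desmin, fell by 0.46 with the knockdown and rose by 0.63 with PE after it.

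**Figure D5:**
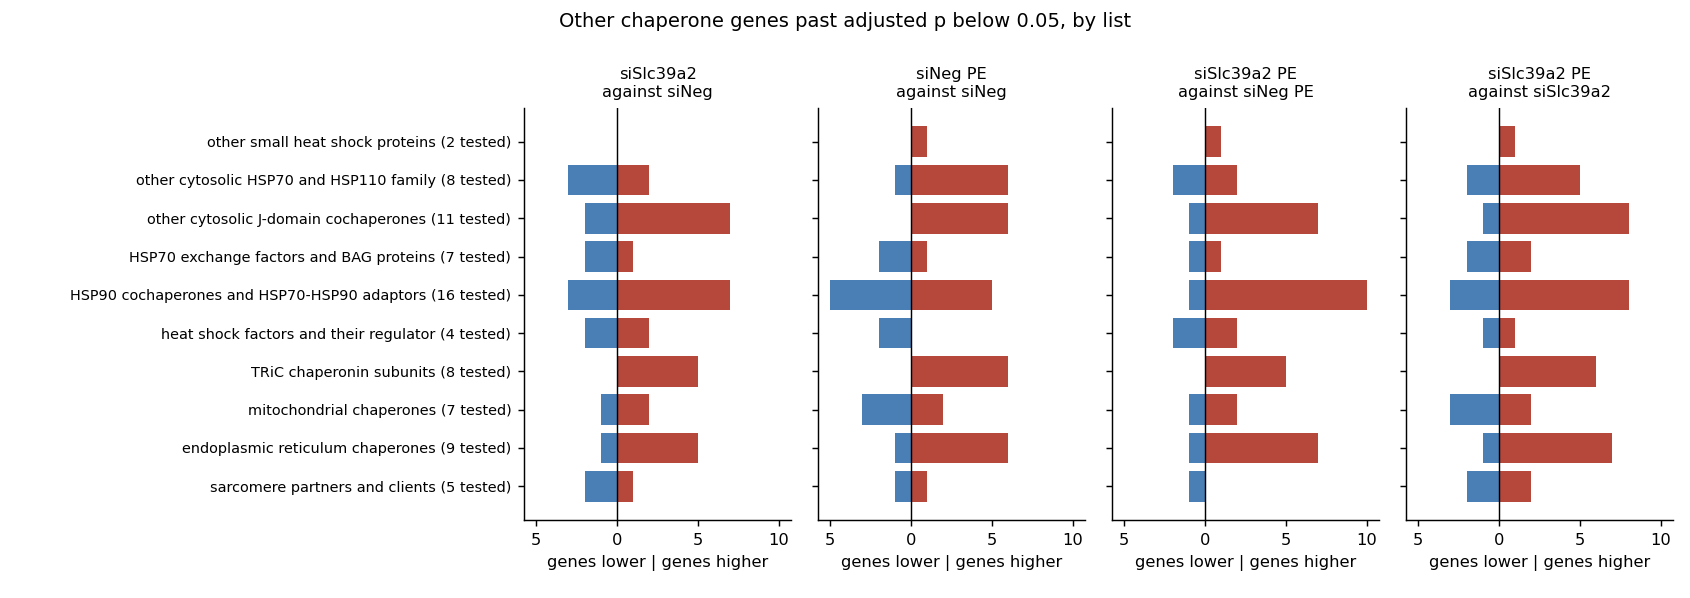
Number of other chaperone genes called higher (red, to the right) and lower (blue, to the left) at an adjusted p below 0.05 in edgeR, by list and comparison; the number tested stands beside each list. The J-domain cochaperones had 7 higher and 2 lower with the knockdown, and the TRiC subunits 5 or 6 higher and none lower in every comparison.

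Over the 12 samples, log2 CPM of Hsph1 and Hsp90aa1 ran closest together among pairs of the 10 genes (Pearson r = 0.972), followed by Hspb8 and Cryab (0.956). Outside the 10, 11743 expressed genes were compared with each in turn. Hsp90aa1 was most like Ssb, Chordc1 and Csnk1g3 (0.996 each), Hsph1 like Arhgap42, Ptcd3 and Thumpd3 (0.993 to 0.994), Hspa8 like Mphosph6 (0.993), Hspb1 like Fez2 (0.991) and Cryab like PVR (0.985). Hspb8 was most like Rnf121 (0.983), Dnajb1 like Nop9 (0.977), Hspb7 like Tspan31 (0.975), Hsp90ab1 like Fhl2 (0.963) and Hspb6 like Ifrd2 (0.96). These values describe 12 samples that fall into 4 groups, so genes that follow the groups alone have high values, and reads of Ssb, Rnf121 and Fhl2 were shared with other genes.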

How the data were processed

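RNA of NRVMs was sequenced in 4 groups of 3. The authors deposited expected counts per gene (not normalized, 78.7% whole) and FPKM of the same 18483 genes. The submitters' processing notes name HISAT, Bowtie2 and Rnor_6.0. The counting program is not given in the sources used here, and the files carry no coordinates.

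Counts were rounded, filtered on low counts (filterByExpr), TMM-normalized and fitted in edgeR 4.0.16 under R 4.3.3 over all 12 samples (8 residual degrees of freedom), with Benjamini-Hochberg adjustment over 13967 genes. CPM use TMM library sizes, and log2 CPM a prior count of 2. The study names limma without the values it was run on, so limma 3.58.1 was an alternative. The others were DESeq2 1.42.0, RLE factors, no filter, total counts, the groups of a comparison alone, the replicate number as a block, pseudocounts of 1 and 0.1, a log2 fold change above 1, leaving out each of the 12 samples, and TPM for the order of levels. Fits were tested on simulated data.

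The genes and lists were chosen with earlier results of these data known. Named are the 10 genes, of each list up to 3 called genes with the largest changes and no overlap, and the 3 genes most like each of the 10 by Pearson r above a mean log2 CPM of 1. A listed gene so named in 1 comparison was also given in others, and Hspb2, Cryaa and Hspb9 were named outside the rule, all after their values were seen. Hspa1b, which has no values, was named as absent. Promoters were matched to RefSeq GRCr8 by gene number.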

Additional observations from a re-analysis of the deposited data

Results flagged for a closer look

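Hspb1 stands here because its response to the knockdown differed with PE. The knockdown effect with PE less that without PE was a log2 difference of 0.502 (adjusted p = 0.0248, edgeR with Benjamini-Hochberg adjustment). All 3 siSlc39a2 PE samples lay above every other sample, but this does not bear on an interaction. It also held for Cryab, Hspa8, Hsph1 and Hsp90aa1, whose interactions were not called in edgeR. The call for Hspb1 was lost in 10 of 20 alternatives, with values from 0.365 to 0.577.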

How the results depend on the processing

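Of the log2 fold changes of the 10 genes and other single values, 925 kept direction and call over the alternatives, 64 crossed the threshold and 52 changed sign. In TPM, 8 of the 10 genes held the same place in the order of levels in siNeg, Hspb1 and Hspa8 changing places. The causes of the changes below were not tested, except that a stricter fold limit can only lower a count. Cryaa and Hspb9 were too low to be tested, and whether depth limited the genes with the fewest counts was not tested.

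Requiring an absolute log2 fold change above 1 left 0 of the 10 genes higher with the knockdown (0 higher and 1 lower of the 77 other chaperone genes), 0 higher and 0 lower with PE in control cells (3 and 0 of the 77), 1 higher with the knockdown in PE-treated cells (7 and 2), 1 higher and 0 lower with PE after the knockdown (10 and 1), and 0 for the interaction (0 and 0).

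With PE in control cells, limma called 6 of the 10 genes higher and 0 lower on each of its 3 scales, with 9 other chaperone genes lower on both FPKM scales. Of the 13967 tested genes it called 3160 higher and 3402 lower on log2(FPKM + 1). The numbers were 3126 and 3245 on log2(FPKM + 0.1), and 3038 and 3257 on log2(count + 1). Total counts gave 5 of the 10 genes higher and 0 lower, and the 2 groups alone 0 lower. Over all tested genes total counts called 3973 higher and 2830 lower, and the 2 groups alone 3585 and 3181 of 13535. With PE after the knockdown limma called 1 of the 10 genes lower on each scale, beside 4392, 4374 and 4467 of all tested genes. With total counts 9 other chaperone genes were lower with the knockdown, beside 2545 of all tested genes. In the interaction the positive call was lost with limma on counts and with total counts (0 genes), and limma on log2(FPKM + 1) added 1 negative call, Cryab (-0.456). The other chaperone genes had 1 positive call there without a filter, 1 positive and 3 negative calls with total counts, and 2 negative calls with limma on log2(FPKM + 0.1). Over all tested genes 177 of 18440 were positive without a filter. With total counts 150 were positive and 736 negative, and 367 were negative with limma on log2(FPKM + 0.1).

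Hsp90ab1 changed sign most often. With the knockdown it was 0.243 with limma on either FPKM scale, 0.266 on counts and 0.0955 with total counts. With PE it was 0.0363 in control cells and 0.0147 after the knockdown with limma on either FPKM scale. With the knockdown in PE-treated cells it was -0.00301 in DESeq2, -0.00302 with RLE factors and -0.00212 in the groups alone. Its interaction was -0.0215 and -0.0216 with limma on FPKM with pseudocounts of 1 and 0.1, -0.102 on counts and -0.0824 with total counts. Hspb7 with PE in control cells was 0.0347 with limma on either FPKM scale and 0.127 on counts, -0.0294 with PE after the knockdown with total counts, and -0.0485 in the interaction with limma on counts. The interaction of Hspb8 was -0.0116 in DESeq2 and with RLE factors, -0.0279 without a filter, -0.0852, -0.0862 and -0.0869 with limma, and -0.122 with total counts. That of Hspa8 was -0.0358 with limma on counts, and Dnajb1 was 0.00894 for the knockdown in PE-treated cells with total counts.

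When 1 sample was left out, 2423 to 3716 of all tested genes were higher and 2694 to 3704 lower with PE in control cells. Those lower with PE after the knockdown were 3396 to 4392, and interaction calls were 127 to 267 positive and 128 to 344 negative. Leaving out 1 sample at a time gave 0 to 1 of the 10 genes lower and 22 to 37 other chaperone genes higher with PE in control cells, 1 to 2 of the 10 lower with PE after the knockdown, and for the interaction 0 to 1 of the 10 positive, 1 to 3 other genes positive and 0 to 1 negative. It moved Hspb6 from -0.0528 to 0.107 and Hspb7 from -0.041 to 0.156 with the knockdown, Hsp90ab1 from -0.0317 to 0.0275 and Dnajb1 from -0.0609 to 0.0469 with the knockdown in PE-treated cells, Hspb7 from -0.08 to 0.0803 with PE after the knockdown, and the interactions of Hspb8 from -0.0981 to 0.075 and of Hsp90ab1 from -0.0085 to 0.0771.

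The replicate numbers are shared between groups. Over all tested genes, the deviations of samples of the same number had a mean r over pairs of 0.00613, 0.192, 0.149 and 0.0512 in the 4 comparisons. Single pairs of the same number ran from -0.0904 to 0.32. Pairs of different numbers had means of -0.00305, -0.0947, -0.0745 and -0.0252. In the same order of comparisons, 2, 4, 4 and 2 of 6 samples correlated best with their own number. Single genes could follow the number more closely. Among the 10 genes, Hspb7 fell from replicate 1 to 2 to 3 in all 4 groups, and no other gene did so in every group. Its CPM were 3415, 2837 and 2683 in siNeg and 3016, 2642 and 2511 in siNeg PE. They were 3253, 3161 and 2698 in siSlc39a2 and 3313, 3103 and 2876 in siSlc39a2 PE. The replicate block gave 5 of the 10 genes higher and 2 lower with PE in control cells, adding Hspb6 (0.24), Hspb8 (0.172) and Dnajb1 (-0.162). Of the 13967 tested genes it called 3919 higher and 4111 lower there, against 3351 and 3584 without the block. It also added Hspb7 with the knockdown in PE-treated cells (0.188) and Hspb8 with PE after the knockdown (0.182), and for the interaction 8 positive and 2 negative calls among the other chaperone genes. Over all tested genes the interaction then had 536 positive and 517 negative calls, against 241 and 263 without the block.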
